A study of Helix lucorum with 35 samples.

Results

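A set of 203 contigs of the terrestrial snail Helix lucorum was characterized that had few counts in unstimulated parietal ganglia (PaG) and more counts after stimulation in each snail with both libraries. A contig is a stretch of transcript sequence put together from the reads themselves, because no genome was used. The level of a contig in a library was expressed as CPM, its count divided by the summed count of the library, times 1000000. The response of a snail, called d here, was log2 of activated over control CPM after 0.5 CPM was added to both. A contig was chosen if d was above 0 in all 11 snails with both libraries, if mean d was at least 1 in E2 and at least 1 in E1, and if its mean CPM over the 11 paired control libraries was below 2. Of the 693041 contigs, 910 had all 11 values of d above 0, 392 of these also reached both limits on mean d, and 203 (0.0293% of all contigs) were below the limit on the control level. They are called near-silent induced contigs below. The other 189 contigs passed every limit but the last and are used for comparison as expressed induced contigs. Members were therefore selected on their measured levels and responses in the 11 pairs, and the size of these is a description that carries no test.

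Immediate early genes (IEGs) are genes that neurons transcribe soon after stimulation without first making new proteins, because the factors that switch them on are already in the cell. Many of them are transcribed very little at rest. The best known is c-fos, which encodes a subunit of the transcription factor AP-1 and is widely used to mark recently active neurons. Anisomycin blocks protein synthesis, so that genes that need a newly made protein for their induction should not respond, while transcripts of IEGs are known to accumulate under such blockers. Serotonin (5-HT) is a modulatory transmitter in molluscan ganglia, and caffeine releases calcium from stores inside the cell.

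The activated and control samples of a snail came from opposite sides of its PaG, taken from adult snails after the isolated ganglia had been stored for 24 h at 4 °C. The activated side stayed for 10 min in saline with 20 µM anisomycin and then for 20 to 25 min in saline to which 5-HT (5 µM) and caffeine (100 µM) were added besides the anisomycin. Tissue of the control side was frozen first, without any drug, so stimulation, anisomycin, the change of saline and the longer time in the dish cannot be told apart. In E2, a medial part of the PaG holding mainly the giant premotor interneurons Pa2 and Pa3 was taken from snails 7 to 13, with 6 activated libraries (4 left, 2 right) and 6 control libraries (2 left, 4 right). From snail 7 there was no control library, and from snail 12 no activated library. In E1, the PaG of one side was taken from snails 1 to 6, with 3 left and 3 right parts in the activated group and likewise in the control group. By the methods, the left parts of E1 carried the adhered visceral ganglion, although the study also says that this ganglion was not used.

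The summed count per library was between 926483 and 29646674 in E2 activated samples, between 8551169 and 28246558 in E2 control samples, between 4704660 and 30474228 in E1 activated samples, and between 3513906 and 35225724 in E1 control samples. The smallest library was the activated library of snail 9, in which 1 count equals 1.08 CPM. The near-silent induced contigs had between 1 and 67 counts there (median 5), and 68 of the 203 had at most 3. Since d had to be above 0 in snail 9, a contig needed an expected count above 0 in this library to be chosen. TMM scaling gave this library a factor of 1.97, against 0.773 to 1.18 for the other libraries. The files do not pair contigs with genes, so no member can be given a name or a role, and marker genes of the tissue could not be looked up. Contigs can also be pieces of 1 transcript, so the number of genes behind the 203 contigs is not known.

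Near-silent induced contigs were present at a few CPM after stimulation, and the rule kept their mean over the 11 paired controls below 2 CPM. This limit does not hold within each experiment. A mean of at least 2 CPM was reached by 59 of the contigs in E2 controls and by 3 in E1 controls. Over the 11 pairs, the mean activated level of a contig was between 0.988 and 25.5 CPM (median 3.46), and the mean control level was between 0.0385 and 2.00 CPM (median 0.856). The ratio of the mean levels had a median of 4.50 and lay between 2.20 and 25.8, with 29 contigs at 10-fold or more. Only 14 contigs reached a mean of 10 CPM after stimulation, and 143 stayed below 5 CPM. In pieces of tissue such as these, more RNA per cell and more cells with the transcript cannot be told apart.

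Low levels at rest were the rule in this assembly and do not set these contigs apart. Of all contigs, 94.0% had a mean below 2 CPM over the 11 paired controls, with a median of 0.0661 CPM, so the near-silent induced contigs lay above the typical contig. They made up 0.0312% of the 651255 contigs below 2 CPM. No member was at 0 in all control libraries of either experiment. Single values at 0 made up 4.93% of the values in E2 control samples (60 of 1218) and 15.9% in E1 control samples (194 of 1218). Over all contigs, the shares were 54.8% in E2 and 53.0% in E1 control samples. In E1, 52 and 73 of the 194 values came from the shallow control libraries of snails 5 and 6. There, 1 count equals 0.285 and 0.279 CPM, and the part of depth in these zeros was not tested. No member was at 0 in any activated library, which the choice of members fixed for all activated libraries except that of snail 7.

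Just inside the limits, the lowest mean d among the members was 1.002 in E2 and 1.005 in E1, and the highest control level was 1.998 CPM. The nearest contigs outside them had a mean d of 0.996 in E2, a mean d of 0.993 in E1 and a control level of 2.014 CPM. The smallest single d among the members was 0.0165, and the nearest contig outside had 0.

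Summed over the 203 contigs, the level was 701 to 1834 CPM in E2 activated samples (1213 ± 403, mean ± SD, n = 6 libraries) and 125 to 667 CPM in E2 control samples (323 ± 211, n = 6). In E1, it was 300.0 to 1374 CPM in activated samples (812 ± 368, n = 6) and 86.5 to 237 CPM in control samples (133 ± 57.0, n = 6). The groups did not overlap in either experiment. The activated library of snail 4 was the lowest activated one and lay close to the highest E1 control library, that of snail 2. With TMM-scaled library sizes, E2 ranges were 749 to 1837 CPM in activated samples and 128 to 813 CPM in control samples, so that the groups overlapped through the activated library of snail 9 and the control library of snail 12.

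**Figure D1:**
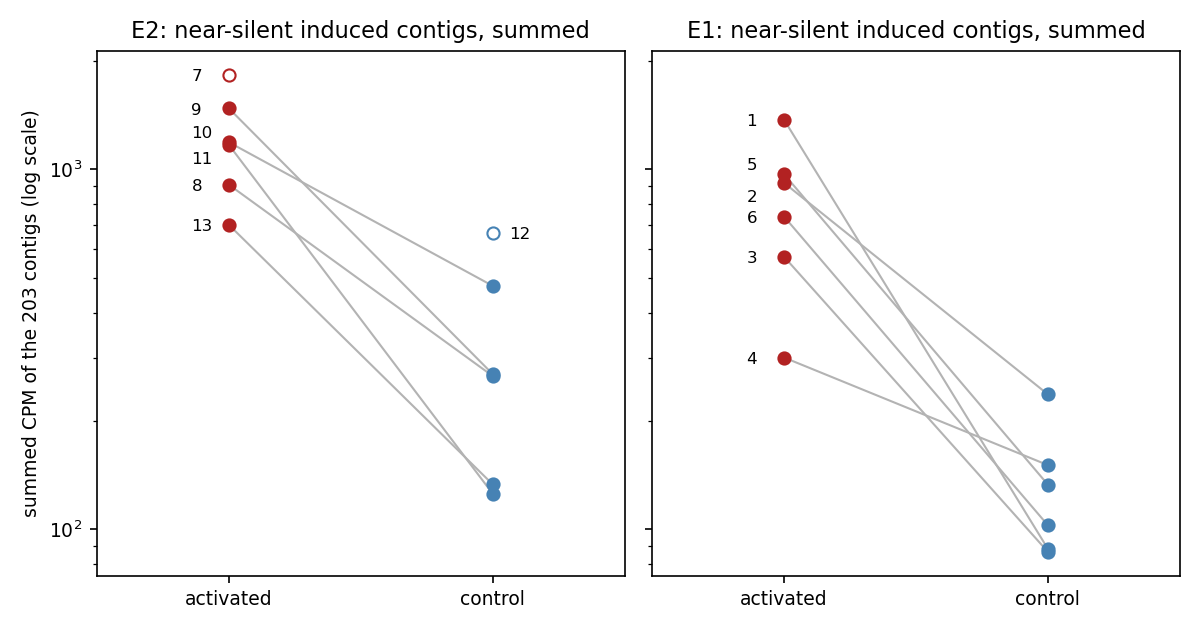
Summed CPM of the 203 near-silent induced contigs in each library (vertical axis, log scale) for E2 (left) and E1 (right), with activated samples in red left of control samples in blue. Numbers are snails, lines join the libraries of 1 snail, and open points are snails 7 and 12, which gave 1 library each. All 11 lines slope down from activated to control, which the rule fixed by asking for d above 0 in each of these snails. The slope is steepest in snail 1 (1374 against 88.2 CPM) and least in snail 4 (300.0 against 151 CPM).

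Mean d had a median of 1.51 in E2 (1.002 to 3.32 over the 203 contigs) and of 1.53 in E1 (1.005 to 3.66). It was larger in E2 for 88 contigs and larger in E1 for 115, and for 154 contigs the means differed by less than 0.5. In the expressed induced contigs, the medians were 1.40 in E2 and 1.86 in E1. The near-equal medians of the members depended on the amount added to the CPM. They were 2.02 in E2 and 2.38 in E1 with 0.1 CPM added, and 1.21 in E2 and 1.16 in E1 with 1 CPM added. In edgeR's exact test, described below, the median log2 fold change of the members was 1.78 in E2 and 2.48 in E1. Equal responses in E2 and E1 are therefore not read from the medians of d.

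Because 0.5 CPM is added before the ratio is taken, a limit on d asks for a larger ratio at a lower control level. The 59 contigs below 0.5 CPM in controls had a median ratio of activated to control level of 6.50, the 60 contigs from 0.5 to 1 CPM had 4.35, and the 84 contigs from 1 to 2 CPM had 3.48. Median mean d was 1.57, 1.52 and 1.46 in E2 and 1.53, 1.52 and 1.55 in E1 for these classes, in the same order. The median d thus changed little with the control level while the ratio fell. With 0.1 CPM added, the median of mean d was 2.02 in E2 and 2.38 in E1.

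A group of 34 contigs had a mean d of at least 2 in both experiments. Their mean activated level was between 3.04 and 25.5 CPM (median 8.38), and their mean control level was between 0.133 and 1.84 CPM (median 0.929). In 7 contigs, d was at least 1 in every one of the 11 snails, with a smallest d between 1.01 and 1.34. At the other end, the smallest d was below 0.1 in 29 contigs, so that 1 snail only just kept them among the members.

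Contigs 1989084 and 2018105 were the members named by rule, as the contig with the highest activated level and the contig with the largest mean d in its weaker experiment. Both are among the 3 contigs with a mean d of at least 3 in both experiments, and neither has a gene name in the files. Contig 1989084 had a lowest, median and highest level of 12.9, 23.8 and 72.3 CPM in E2 activated samples, and of 0.662, 3.09 and 7.02 CPM in E2 control samples. In E1, it had 2.10, 17.4 and 57.4 CPM in activated samples and 0.114, 0.810 and 1.73 CPM in control samples. The highest E2 values came from snails 9 and 7, with 72.3 and 69.5 CPM, and the lowest activated value came from snail 4. Groups did not overlap in either experiment, and the choice of this contig used most of these values. In the shallow activated library of snail 9, the level of contig 1989084 rested on 67 counts. The TMM factor of 1.97 for this library would lower that level, and the levels given here are not TMM-scaled.

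After stimulation, contig 2018105 had an SD of 3.58 CPM on a mean of 17.4 CPM in E2 and of 6.05 on 11.2 CPM in E1, against 26.6 on 37.0 CPM in E2 and 19.5 on 21.3 CPM in E1 for contig 1989084 (n = 6 libraries each). Contig 2018105 had a lowest, median and highest level of 14.0, 16.1 and 23.8 CPM in E2 activated samples, and of 0.526, 1.52 and 2.31 CPM in E2 control samples. In E1, it had 2.24, 11.9 and 18.4 CPM in activated samples and 0, 0.387 and 1.99 CPM in control samples. Activated libraries lay above control libraries in both experiments, and the choice of this contig used most of these values. The groups came closest in E1, with 2.24 CPM in the activated library of snail 4 and 1.99 CPM in the control library of snail 2. In snail 4, contig 2018105 had 32.9 counts in the activated library and 32.2 in the control library, and its d of 0.82 there came from the larger total of the control library.

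**Figure D2:**
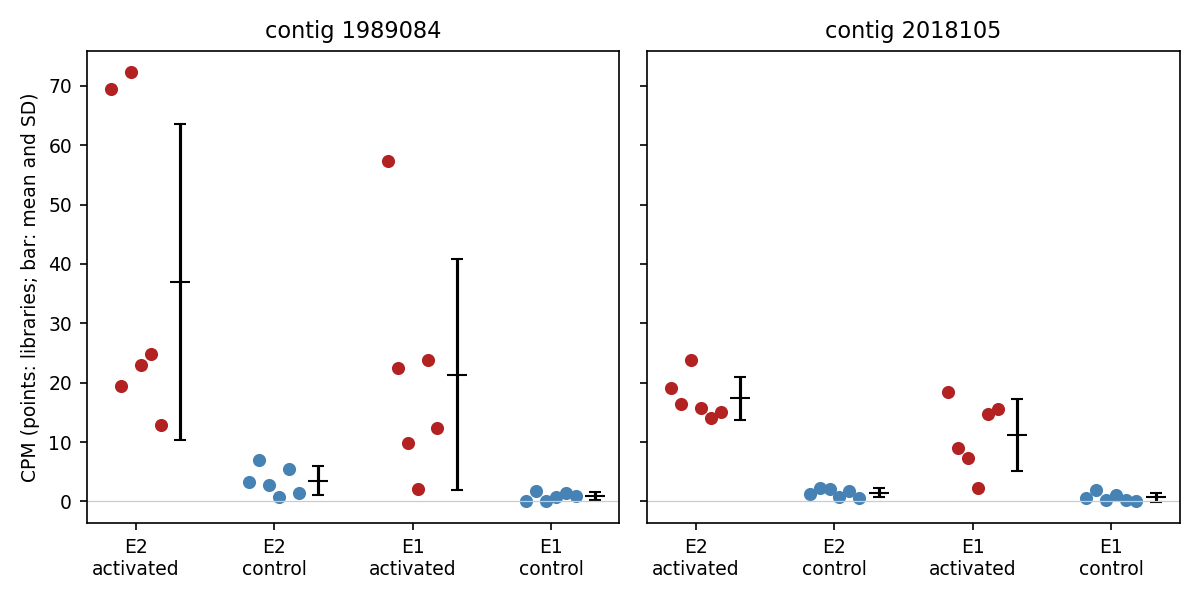
CPM of contig 1989084 (left) and contig 2018105 (right) in each library, with activated samples in red and control samples in blue, E2 before E1. Points are libraries, 6 in each group, and black bars show the mean and SD. In E2, by CPM without TMM scaling, contig 1989084 had 2 libraries at 69.5 and 72.3 CPM and 4 between 12.9 and 24.8 CPM. Contig 2018105 stayed between 14.0 and 23.8 CPM. The highest E2 value of each contig is from the activated library of snail 9. TMM scaling, with a factor of 1.97 for that library, would lower both values, so the split is not read as a trait of the contig.

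The response differed between snails of the same experiment. The median d over the 203 contigs was 1.35 in snail 8, 1.86 in snail 9, 1.10 in snail 10, 2.22 in snail 11 and 1.33 in snail 13 of E2. In E1, it was 2.56 in snail 1, 1.31 in snail 2, 1.57 in snail 3, 0.55 in snail 4, 1.91 in snail 5 and 1.76 in snail 6. Snail 4 gave the smallest d for 106 of the 203 contigs, and snail 1 gave the largest for 88. The summed level was 15.6 times as high in the activated as in the control library of snail 1, and 1.99 times as high in snail 4. Scaled by TMM, the summed level in the activated library of snail 9 was 749 CPM in place of 1477 CPM.

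A contig that the study assigns to c-fos/fosl2 is one of the expressed induced contigs and not a member. This contig had 92.6 to 187 CPM in E2 activated samples and 7.82 to 64.6 CPM in E2 control samples. In E1, it had 37.2 to 122 CPM in activated samples and 1.35 to 12.7 CPM in control samples. Its d was likewise largest in snail 1 of E1 (6.05) and in snail 11 of E2 (4.30), and smallest in snail 4 of E1 (1.51) and in snail 10 of E2 (1.72). The extreme snails of the c-fos/fosl2 contig within each experiment were therefore those of the near-silent induced contigs.

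**Figure D3:**
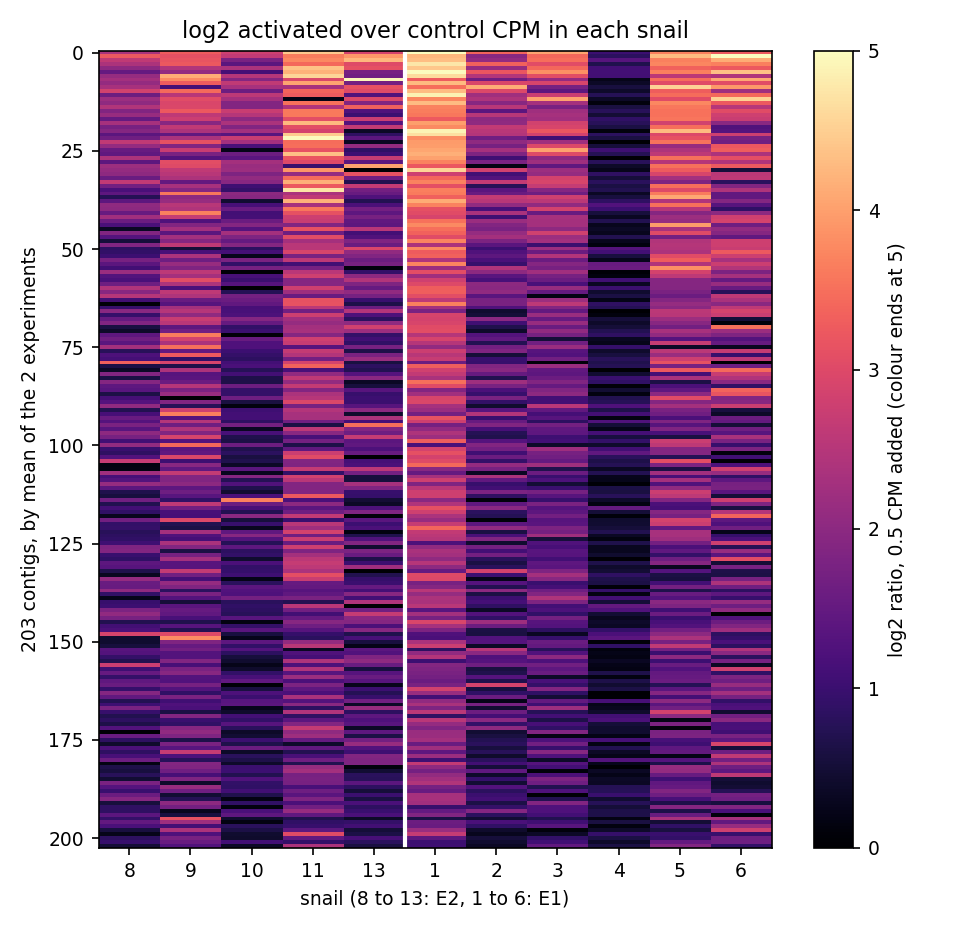
Heat map of d, the log2 ratio of activated to control CPM with 0.5 CPM added, for the 203 near-silent induced contigs (rows, sorted by the mean of both experiments) in the 11 snails with both libraries (columns, E2 left and E1 right of the white line). Brighter means a larger d, and the colour scale ends at 5. The column of snail 4 is the darkest, with a median d of 0.55, and that of snail 1 the brightest, with 2.56.

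edgeR's exact test was run within each experiment on the contigs with a total count above 10, with calls made at more than 2-fold and an adjusted p below 0.05. All 203 members passed this filter in both experiments. In E2, 26 of the 203 were called higher, and over all contigs tested 0.0239% were. In E1, 97 of the 203 were called higher, and over all contigs 0.0843% were. Since this contrast chose the members, nothing is read from these counts. They show how many of the chosen contigs pass the study's kind of test, namely 101 in at least 1 experiment and 22 in both. This run used rounded counts and does not give the study's own list of calls. When edgeR's quasi-likelihood test was given a block for the snail, 129 members in E2 (0.297% of all contigs) and 163 in E1 (0.303%) were called. Without the block, 0 members and 0 of all contigs were called in either experiment. At an unadjusted p below 0.05 without the block, 161 members in E2 and 199 in E1 were higher. Over all contigs tested, 5609 of 317414 in E2 and 7035 of 387774 in E1 were.

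In 50 members in E2, the lowest activated library lay above the highest control library, as it did for 0.0696% of all contigs tested. In E1, this held for 74 members and for 0.185% of all contigs tested. Here too the choice of members used the same values. For most members, then, the response in each snail was seen against control levels that overlapped with the activated levels of other snails.

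The activated library of snail 7 and the control library of snail 12 had no part in the choice of members. They come from different snails and opposite sides, with 1 library each, so the difference has no replicate check and no test was run. Of the 203 contigs, 186 (91.6%) had a higher level in the activated library of snail 7 than in the control library of snail 12, against 50.3% of all contigs tested in E2. At least 2-fold higher were 131 (64.5%), against 8.78% of all contigs. The median log2 ratio was 1.38 (-2.30 to 4.29), against 0.01 over all contigs, and 17 members were below 0. The contigs tested in E2 are not matched to the members for level. The median of 0.0661 CPM over the paired controls is for all contigs of the assembly, tested or not. With 0.5 CPM added, a contig near 0 CPM in both libraries has a ratio near 1, which limits what these shares can show. Of the 189 expressed induced contigs, 154 were above 0, with a median of 0.79.

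Contig 1989084 had 69.5 CPM in the activated library of snail 7 and 5.48 CPM in the control library of snail 12, a log2 ratio of 3.55. Contig 2018105 had 19.2 and 1.77 CPM in these libraries, a log2 ratio of 3.12. The c-fos/fosl2 contig had 152 and 64.6 CPM, a log2 ratio of 1.23. Both libraries were high for their group. Snail 7 exceeded all 5 paired activated libraries of E2 in 92 members, and snail 12 exceeded all 5 paired control libraries of E2 in 109. In the control library of snail 12, 102 members reached at least 2 CPM. The 17 members with a ratio below 0 had a median of 4.28 CPM in snail 7 and of 8.02 CPM in snail 12, and their mean d in the paired E2 snails was between 1.03 and 1.84.

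**Figure D4:**
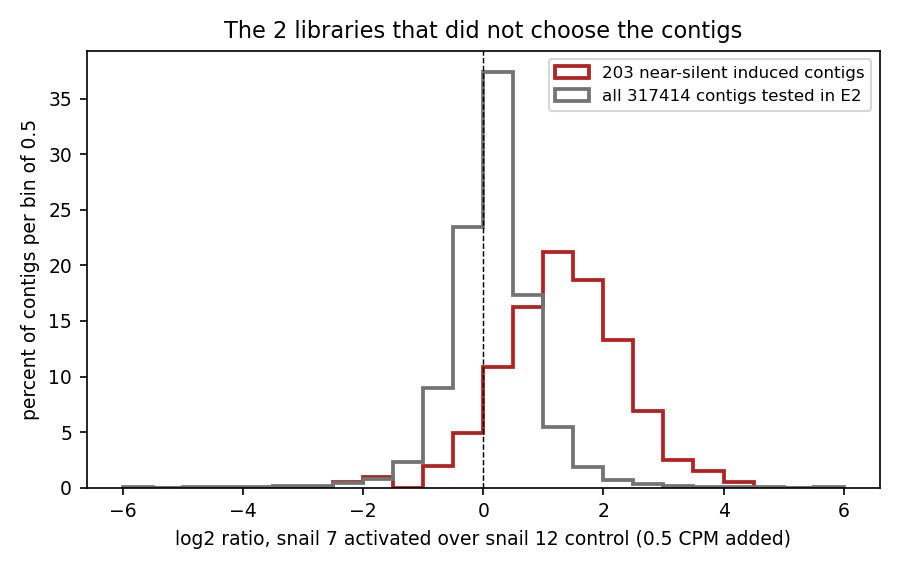
Distribution of the log2 ratio of the activated library of snail 7 to the control library of snail 12, with 0.5 CPM added (horizontal axis, bins of 0.5, with values beyond 6 in the end bins), for the 203 near-silent induced contigs (red) and all 317414 contigs tested in E2 (grey), as a percent of each set. The red curve has its median at 1.38 and the grey one at 0.01. The sets are not matched for level.

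Among unstimulated samples, most near-silent induced contigs had a higher mean level in E2 than in E1, and 16 of them passed the test. All of these libraries except that of snail 12 had a part in the choice of members, through the control level and d. An expected count above 0 in the activated library of snail 9 is also reached more easily by a contig with a higher level in E2. The values of the members are therefore set beside those of all contigs as a description, and nothing is read from the difference in their shares. The mean E2 control level was between 0.0974 and 7.51 CPM over the 203 contigs (median 1.32), and the mean E1 control level was between 0.0190 and 2.05 CPM (median 0.542). At least 2 CPM on average were reached by 59 contigs in E2 controls and by 3 in E1 controls, so the name near-silent fits the controls of E1 better than those of E2. The E2 mean was above the E1 mean in 191 of the 203 contigs, against 30.9% of all contigs tested. It stayed above in 180 to 195 contigs when each of the 12 control libraries was left out in turn, with the lowest number without snail 12. The rule without snail 9, a choice made after seeing the data, gave 222 contigs, 184 of them among the 203. Of these 222, 16 were called by the test given next, which is a count in a larger and partly different set.

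With edgeR's quasi-likelihood test over 359416 contigs, 16 of the 203 members (7.88%) were higher in E2 controls at an adjusted p below 0.05, against 0.291% of all contigs. No member was lower, against 0.739% of all contigs. At an unadjusted p below 0.05, 127 members were higher, against 5.32% of all contigs, and 0 were lower. The median log2 fold change of the members was 1.82, and that of all contigs was 0.02. The 16 called members had log2 fold changes between 2.17 and 4.08 and adjusted p-values between 0.00208 and 0.0454. Their mean level was between 1.12 and 4.35 CPM in E2 controls (median 3.11) and between 0.153 and 1.02 CPM in E1 controls (median 0.723).

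The member with the smallest p, which ranked 48th by activated level, had a lowest, median and highest level of 1.65, 3.78 and 6.92 CPM in E2 controls and of 0.199, 0.554 and 0.838 CPM in E1 controls. Its groups did not overlap, and its log2 fold change was 3.46 (edgeR's quasi-likelihood test, adjusted p = 0.00208). Contig 1989084 differed by a log2 fold change of 2.72 and contig 2018105 by 1.51, and neither passed (adjusted p = 0.0759 and 0.363 from the same edgeR test). Contig 1989084 did pass with edgeR's exact test, with DESeq2, without a filter on low counts and without the control library of snail 11. The c-fos/fosl2 contig was higher in E2 controls by 3.03 (edgeR, adjusted p = 0.037). Of the expressed induced contigs, 47 of 189 were called higher and 0 lower, against 0.291% and 0.739% of all contigs. The same libraries chose these contigs, so nothing is read from these counts either.

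Single libraries moved the count of 16. Leaving out an E2 control library changed it to 6 (snail 10), 5 (snail 12), 21 (snail 11) or 18 (snail 13). Leaving out an E1 control library changed it to 3 (snail 1), 5 (snail 3), 6 (snail 4), 8 (snail 5) or 7 (snail 6). Calls higher over all contigs also fell, from 1046 to between 566 (without snail 3) and 980 (without snail 11). edgeR's exact test called 43 members and DESeq2 called 49, again with 0 lower. Of all 359416 contigs, the exact test called 2908 higher and DESeq2 3291, against 1046 in the main test. E2 and E1 differed in both the snails and the tissue part, and these cannot be told apart.

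**Figure D5:**
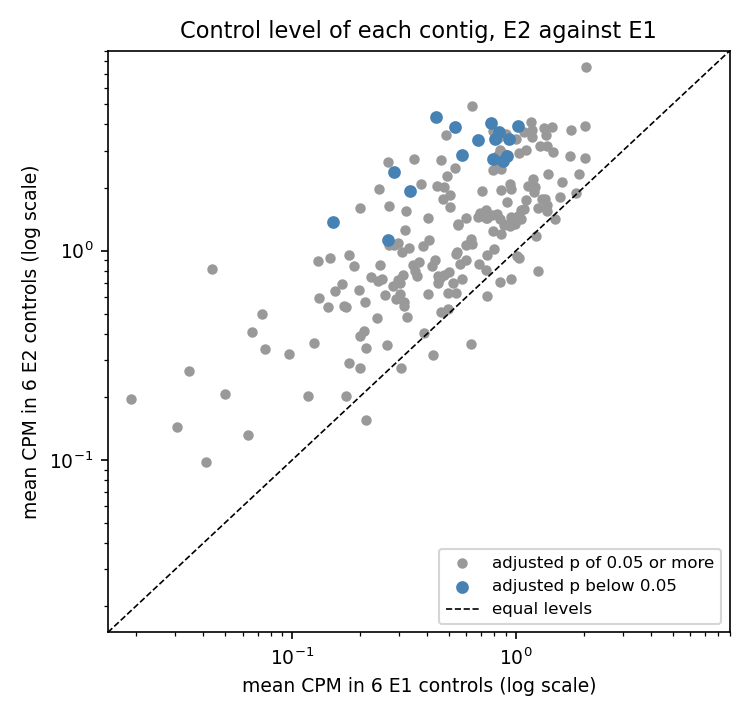
Mean CPM of each of the 203 near-silent induced contigs in the 6 E2 control libraries (vertical axis) and in the 6 E1 control libraries (horizontal axis), both on log scales. Blue points are the 16 contigs with an adjusted p below 0.05 in edgeR's quasi-likelihood test, grey points are the others, and the dashed line marks equal levels. Most points, 191 of 203, lie above the line.

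Among stimulated samples, the difference between the experiments had the same direction. Its size was not tested against that in controls. The mean E2 activated level was between 0.847 and 37.0 CPM over the 203 contigs (median 4.65), and the mean E1 activated level was between 0.709 and 27.1 CPM (median 2.97). The E2 mean was above the E1 mean in 169 contigs, against 25.8% of all contigs tested. The quasi-likelihood test called 7 members (3.45%) higher in E2, against 0.277% of all contigs, and 0 lower, against 0.996%. At an unadjusted p below 0.05, 86 members were higher, against 4.08% of all contigs. The median log2 fold change of the test, with TMM scaling, was 0.94 over the members and -0.15 over all contigs. By mean CPM with 0.5 added, the median log2 ratio was 0.503 over the members and -0.189 over all contigs. The 7 called members had log2 fold changes between 1.81 and 2.39, and 3 of them were also among the 16 called in controls. These libraries, except that of snail 7, chose the members, and an expected count above 0 in the small activated library of snail 9 is reached more easily by a contig with a higher level in E2. The shares beside those of all contigs are therefore a description, and nothing is read from their difference. Among the 222 contigs chosen without snail 9, a choice made after seeing the data, 6 were called.

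Contig 1989084 was higher in E2 activated samples by a log2 fold change of 1.05 and contig 2018105 by 1.01, and neither passed (edgeR's quasi-likelihood test, adjusted p = 0.52 and 0.312). Single libraries also moved the count of 7. Without the activated library of snail 9 it was 12. Leaving out that of snail 4 or 10 changed it to 2, and leaving out that of snail 3 changed it to 3. Without that of snail 1, 2, 6, 7 or 8 it was 4. Calls higher over all contigs moved from 991 to 1247 without snail 9, and to between 444 and 887 without any other library. edgeR's exact test called 18 members and DESeq2 called 36. Of all 357765 contigs, the exact test called 2289 higher and DESeq2 3541, against 991 in the main test.

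Left and right sides were compared within each experiment with condition in the model. The quasi-likelihood test called 0 of the 203 members in E2, where 0.0539% of all contigs were higher on the left and 0.00126% were lower. At an unadjusted p below 0.05, 2 of the 203 members were higher on the left in E2, against 1.57% of all contigs. In E1, the test also called 0 members, where 0.0418% of all contigs were higher on the left and 0.0377% were lower. There, 3 of the 203 members were higher on the left at an unadjusted p below 0.05, against 1.31% of all contigs. With the snail as a replicate block, 6 members were called higher on the left in E1 (0.362% of all contigs were) and 0 in E2 (0.169% were).

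In E1 with the block, the side term equals a comparison of d between the snails activated on the left (snails 1 to 3) and those activated on the right (snails 4 to 6). Since d chose the members, the 6 calls are a description and nothing is read from them. The 6 called members had log2 fold changes of left over right between 0.88 and 1.61. Contig 1989084 was one of them, and it was not called without the block. Its d was 6.56, 3.37 and 4.06 in the snails activated on the left and 1.02, 3.66 and 3.26 in those activated on the right, which overlapped, with snails 1 and 4 at the ends. Left parts of E1 carried the visceral ganglion by the methods, so side and ganglion cannot be told apart. In E2, snail 9 is the only snail with both libraries that was activated on the right, so the block there rests on its shallow library.

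The rule did not use whether counts were whole. RSEM splits reads that match several contigs, which leaves counts that are not whole. Of the values above 0, 58.3% were not whole (by more than 0.005) in the 203 contigs, 80.9% in the 189 expressed induced contigs and 43.6% in all contigs. Only 7 members (3.45%) had whole counts in all 24 libraries, against 16.9% of the 454731 contigs with a total above 10. Contigs with more counts have more chances of a value that is not whole, so these shares are not matched for level.

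Between libraries of a group, the levels of most pairs of members were positively correlated. After the mean of its group was taken from each library, the correlation of log2 CPM over the 24 libraries between 2 members had a median of 0.447 over the 20503 pairs of members, and 95.3% of the pairs were above 0. In the 189 expressed induced contigs, the median was 0.468 over 17766 pairs, and 92.7% were above 0. All pairs share the same libraries, depths and snails, most of which chose the contigs, and all contigs were not looked at in this way, so these values are a description. Only 39 pairs were above 0.9, involving 44 members, and whether these are pieces of 1 transcript was not tested. The coefficient of variation between the libraries of a group had a median over members of 53.1% in E2 activated samples, 78.7% in E2 control samples, 56.8% in E1 activated samples and 82.7% in E1 control samples. Control levels rested on few counts, with a median of 102 counts summed over the 6 E2 control libraries and of 44 over the 6 E1 control libraries.

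The opposite pattern was rare. Only 138 contigs had all 11 values of d below 0, and 1 contig met the mirrored rule, with both means of d at most -1 and a mean below 2 CPM in the activated libraries.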

How the data were processed

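Ganglia of 13 snails gave 24 RNA-Seq libraries, and another 11 samples, sequenced for the assembly, were not analysed here. The authors trimmed reads with cutadapt 1.11, assembled contigs without a genome, mapped reads with Bowtie 1.0.0 and estimated counts with RSEM 1.2.18. The deposited values are expected counts per contig, neither normalized nor filtered, in a table for each experiment, and all columns were used. The labels name polyA RNA, whereas the protocol describes removal of rRNA and a stranded kit for total RNA.

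CPM used the column sums. For tests, expected counts were rounded, and contigs with a total above 10 in the libraries compared were kept. Activation was tested with edgeR's exact test, as in the study, and E2 against E1 and left against right with edgeR's quasi-likelihood test, all with TMM scaling and BH adjustment of the p-values over all contigs (R 4.3.3, edgeR 4.0.16, limma 3.58.1, DESeq2 1.42.0). Scripts were tested on simulated counts. Alternatives covered the tool, scaling, filter, pseudocount, limits of the rule, snail block and left-out libraries. The labels give no sequencing batch.

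The contigs and the comparisons were chosen with earlier results of these data known. By a rule, 2 members are named: the one with the highest mean CPM in the paired activated libraries, and the one with the largest mean d in its weaker experiment. By the labels, a snail number stands for 1 animal, so its libraries are paired. Deviations from the group means correlated at 0.373 to 0.742 within snails and at -0.268 to 0.102 between snails in E2 (20450 contigs averaging 50 counts or more), and at 0.699 to 0.790 and -0.261 to -0.0719 in E1 (30204 contigs).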

Additional observations from a re-analysis of the deposited data

Results flagged for a closer look

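The number of near-silent induced contigs without a count was 30 in the control library of snail 11, against 0 to 11 in the other E2 control libraries, a gap of 0.633 of the range of the group. In all, 22 groups of 6 libraries, or of 5 or 6 snails for median d, were looked at, and 1 had such a gap. Chance gives about 1 in 20 groups, or 1.1, if the groups are independent. They are not, since several measures use the same libraries, so 1.1 is a rough guide.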

How the results depend on the processing

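The number of contigs that met the rule was 197 with TMM-scaled library sizes, 121 with a pseudocount of 1, 341 with a pseudocount of 0.1, 119 with a control limit of 1 CPM, 34 with a mean d of at least 2, and between 171 and 259 with each snail left out. With a pseudocount of 0.1, the median of mean d was 2.02 in E2 and 2.38 in E1. In the activation test, the quasi-likelihood test called 0 members in either experiment without the replicate block, and 129 in E2 and 163 in E1 with it. In E2, DESeq2 called 54, no filter gave 14, and a filter of at least 1 CPM in at least 6 libraries gave 54 (of 182 tested). Over all contigs tested, DESeq2 called 173 higher, no filter 40 (of 595006) and the CPM filter 116 (of 57529), against 76 in the main test. For E2 against E1 controls, the exact test called 43, DESeq2 49 and no filter gave 32, and leaving out 1 library gave 3 to 21. Among all contigs tested, the exact test called 2908 higher, DESeq2 3291 and no filter 1497 (of 623907), against 1046 in the main test. Leaving out 1 library gave 566 to 980 of all contigs. For E2 against E1 activated samples, the exact test called 18, DESeq2 36 and the CPM filter 28, and leaving out 1 library gave 2 to 12. Among all contigs tested, the exact test called 2289 higher, DESeq2 3541 and the CPM filter 1373 (of 67930), against 991 in the main test. Leaving out 1 library gave 444 to 1247 of all contigs. The 222 contigs chosen without snail 9, an alternative added after seeing the data, gave 16 and 6 calls. Left against right in E1 gave 6 calls with the replicate block, with 0.362% of all contigs called higher on the left. The causes of these moves were not tested. Ratios from single libraries kept 176 to 186 members above 0 and 117 to 144 at 2-fold or more. The low control counts limit every value near 1 CPM.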
